A study of Rattus norvegicus with 12 samples.

Results

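miR-29 is a small family of microRNAs, here the 3 guide strands rno-miR-29a, rno-miR-29b and rno-miR-29c. They were taken as the array rows that carry these names, without the other (star) strands of the same hairpins, which makes 3 of the 677 rat miRNAs on the array. Soleus, a slow postural muscle of the hind limb, was taken from male Sprague-Dawley offspring at the age of 1 year. The 6 control offspring came from dams on standard chow, and the 6 high fat offspring from dams fed a diet rich in saturated fat and sucrose before mating, in pregnancy and during lactation. The study's methods give a smaller n for the high fat offspring than the labels, and its table of phenotypes a smaller n for the control offspring. Why these counts differ is not stated, nor whether a rat was left out, so all labelled rats were used. In both groups the offspring themselves were weaned onto chow. Each rat gave RNA for 1 single-colour (Cy3) Agilent rat miRNA microarray. The arrays lay on 2 slides with 3 rats of each group per slide. The labels do not say which rats were littermates, so the tests measure the spread between these rats only. The comparison asks whether the diet of the dam left a difference in the muscle miRNAs of the adult offspring.

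A microRNA guides the Argonaute complex to messenger RNAs that pair with its seed, the short stretch near its 5′ end, and lowers their stability and translation. miR-29 is best known for its matrix targets, among them the fibrillar collagens, elastin and fibrillin, and it falls in many fibrotic tissues. It is also known to target parts of the insulin pathway, among them the regulatory subunit of phosphoinositide 3-kinase, Irs1 and Akt2, and it takes part in the differentiation of muscle cells.

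The sequences are shown because they say how alike the 3 members are, both for their targets and for the probes of the array. They are the mature sequences of RefSeq (GRCr8), written 5′ to 3′ with the seed (bases 2 to 8) in capitals.
rno-miR-29a: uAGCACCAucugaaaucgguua
rno-miR-29b: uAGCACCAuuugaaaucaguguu
rno-miR-29c: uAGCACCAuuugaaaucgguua
All 3 members share the seed, and of the 693 mature names in the RefSeq table these 3 hold it. Counted from 1 at the 5′ end and read from rno-miR-29c, rno-miR-29a differed by U10C alone over 22 bases. rno-miR-29b differed from rno-miR-29c by G18A, U21G and A22U and is 1 base longer. It ends in the hexamer AGUGUU, known as a signal for import into the nucleus, which the other members lack. How far a probe for 1 member also took up another was not tested.

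The family comes from 4 hairpins in 2 pairs. The hairpin of Mir29a (mature strand at chr4:60617968-60617989, minus strand) lies 291 bases from that of Mir29b1 (mature strand at chr4:60618342-60618364, minus strand). The hairpins of Mir29b2 and Mir29c (mature strand of Mir29c at chr13:109099412-109099433, plus strand) lie 447 bases apart on chromosome 13. Both rno-miR-29b hairpins give the same guide strand, so its signal sums the 2 loci. A further 3 miRNAs are annotated on the opposite strand of the guides, and each sequence is contained in the reverse complement of its guide.
rno-miR-3556a (against rno-miR-29a): cgauuucagauggugcua
rno-miR-3587 (against rno-miR-29b): aacacugauuucaaauggugc
rno-miR-3556b (against rno-miR-29c): accgauuucaaauggugcua
The scanner software detected these antisense miRNAs on 0 of 12 arrays and each of the 3 guide strands on all 12 arrays.

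The arrays as a whole set the scale for these values. Between 177 and 220 miRNAs were detected per array, 162 on all arrays and 432 on none. Summed over the detected miRNAs, the signal was 331758 to 516055 on slide 1 and 528297 to 567426 on slide 2, with no overlap. Signals were divided by each array's 75th percentile over the 162 miRNAs detected everywhere and brought back to a common unit, called the scaled signal. The muscle list (miR-1, miR-133a, miR-133b, miR-206, miR-208b-3p and miR-499) was detected in all rats except that 1 rat lacked miR-208b-3p. That rat was H3 of the high fat group on slide 1. Its scaled signal of miR-499, which is encoded in a slow myosin gene, was 366 against 4553 to 9137 in the other 11 rats. Its miR-206 was 9354 against 30841 to 60699, whereas its miR-1, at 136123, was the highest of the 12. Rat H3 thus stood apart in the miRNAs of slow muscle, and the diet differences, ratios and correlations of the members are given with and without it. Of the 8 liver or epithelium miRNAs, 3 were detected on at least 6 arrays, and their summed scaled signal stayed between 30.7 and 507.

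The members differed little between the diets. With the scaling used here, the log2 fold changes (high fat minus control) were -0.03, -0.03 and -0.07, and no member passed the test.

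rno-miR-29a, encoded beside Mir29b1, had a scaled signal of 15606, 16655 and 16773 in the control rats of slide 1 and of 16269, 14510 and 16091 in those of slide 2. In the high fat rats it was 16579, 19459 and 13943 on slide 1 and 13675, 14666 and 16428 on slide 2. The high fat values lay on both sides of the control values, with the lowest and the highest of all 12 rats among them. The group means were 15984 ± 834 (SD, n = 6) and 15791 ± 2174 (SD, n = 6). The log2 fold change was -0.03 (95% confidence interval -0.29 to 0.24, limma adjusted p = 0.968). The exact permutation p (two-sided, from the 924 ways to split the rats) was 0.794 (n = 6 per group). Without rat H3 the difference of the same values was 0.007 (exact permutation p = 0.926).

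rno-miR-29b, the member with 2 loci, had a scaled signal of 15050, 16931 and 17920 in the control rats of slide 1 and of 15666, 13730 and 13666 in those of slide 2. In the high fat rats it was 11878, 18029 and 9139 on slide 1 and 17945, 16788 and 19789 on slide 2. The 2 lowest values of all 12 rats, C51 and H3, and the highest, H20, were in the high fat group. The group means were 15494 ± 1711 (SD, n = 6) and 15595 ± 4146 (SD, n = 6). The log2 fold change was -0.03 (95% confidence interval -0.45 to 0.38, limma adjusted p = 0.977; exact two-sided permutation p = 0.872). Without rat H3 the difference was 0.11 (exact permutation p = 0.435).

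rno-miR-29c, encoded beside Mir29b2, had a scaled signal of 12554, 12326 and 13507 in the control rats of slide 1 and of 13705, 11896 and 14193 in those of slide 2. In the high fat rats it was 10906, 15035 and 11586 on slide 1 and 12804, 11284 and 13321 on slide 2. Of the high fat rats, H1 lay above the control range, C51, C25 and H3 below it, and A37 and H20 within it. The group means were 13030 ± 899 (SD, n = 6) and 12489 ± 1552 (SD, n = 6). The log2 fold change was -0.07 (95% confidence interval -0.33 to 0.19, limma adjusted p = 0.874; exact two-sided permutation p = 0.426). Without rat H3 the difference was -0.05 (exact permutation p = 0.602). These values without H3 keep the scaling of all 12 arrays. With the other 11 arrays scaled anew, the log2 fold changes were 0.09 for rno-miR-29a, 0.19 for rno-miR-29b and 0.03 for rno-miR-29c, so that the sign of each member turned.

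**Figure D1:**
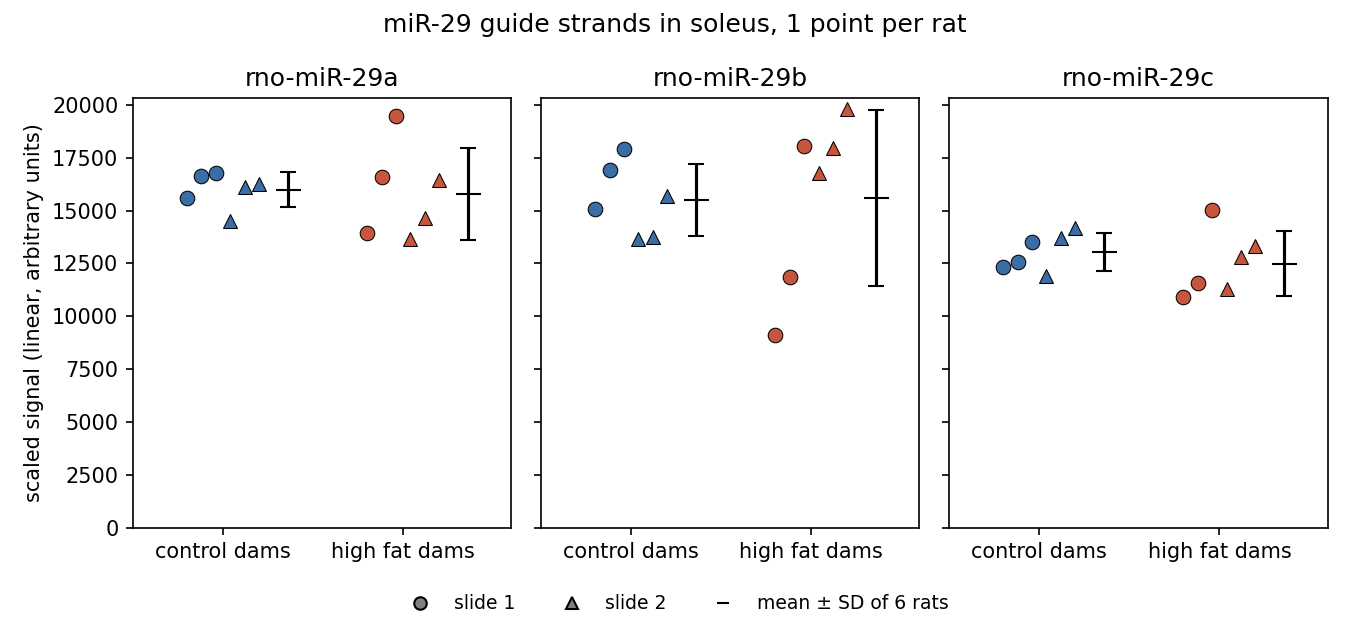
Scaled signal (linear, arbitrary units, axis from 0) of rno-miR-29a, rno-miR-29b and rno-miR-29c in 6 control and 6 high fat offspring, with circles for slide 1, triangles for slide 2 and bars for the mean ± SD. The groups overlap in each member, and the high fat values of rno-miR-29b run from 9139 to 19789. Heights are not compared between members, since each has its own probes.

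Of the 193 miRNAs detected on at least 6 arrays, limma called 0 (0%) at an adjusted p under 0.05 and 2 (1.04%) at an unadjusted p under 0.05, neither of them a member. The median log2 fold change of the 193 was -0.17, and 154 of them were negative. The members stood above that median by 0.14 (rno-miR-29a), 0.13 (rno-miR-29b) and 0.10 (rno-miR-29c). Their directions depended on the scaling. Without any scaling between arrays the median of all tested miRNAs was 0.14, and the members had log2 differences of 0.28, 0.28 and 0.24 (limma adjusted p = 0.993 for each). On unscaled signals the exact permutation test gave p = 0.0671 for rno-miR-29a, p = 0.316 for rno-miR-29b and p = 0.206 for rno-miR-29c (n = 6 per group). With rat H3 left out, the unscaled differences were 0.36 for rno-miR-29a (exact permutation p = 0.0173), 0.46 for rno-miR-29b (exact permutation p = 0.0671) and 0.30 for rno-miR-29c (exact permutation p = 0.121). Leaving out H3 leaves fewer high fat than control rats on slide 1, the slide with the lower summed signal. These tests without H3 did not permute within slides, so diet and slide are not separated in them. With all rats permuted within slides (400 assignments), the unscaled exact p was 0.025 for rno-miR-29a, 0.205 for rno-miR-29b and 0.06 for rno-miR-29c. For the scaled differences the exact p was 0.77, 0.88 and 0.44. The sign of the diet difference thus changed with the scaling in each of the 3 members, and no scaling tried gave a limma call.

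**Figure D2:**
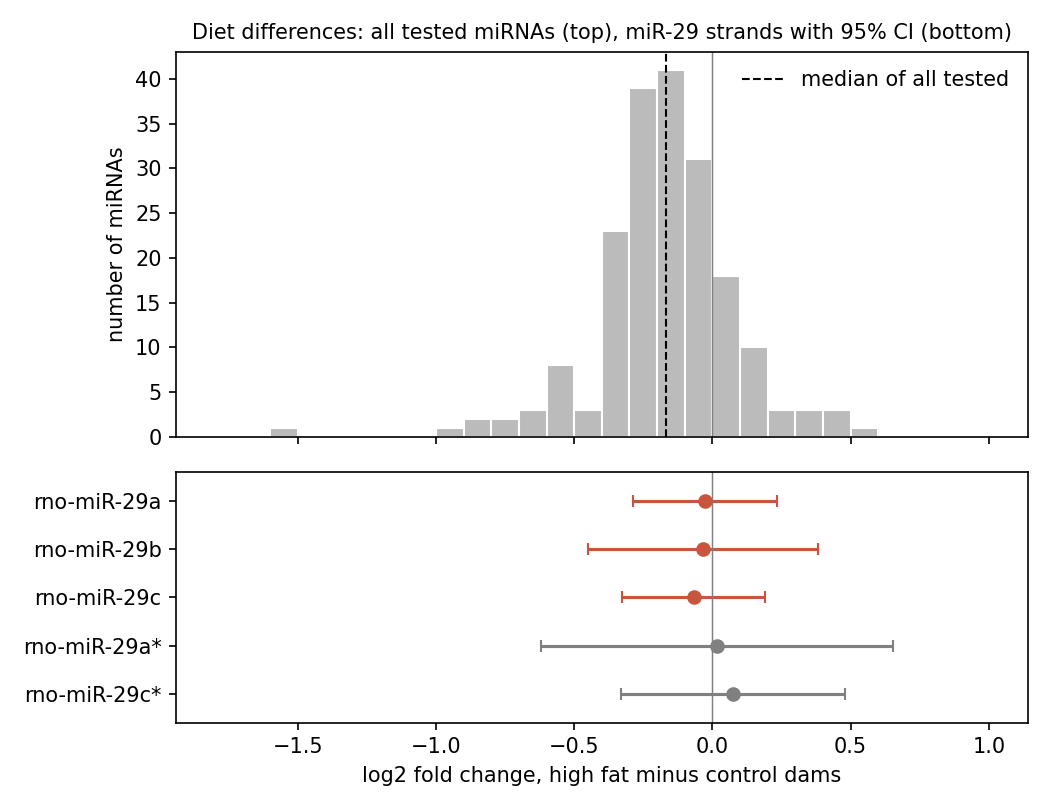
Top, number of miRNAs by log2 fold change (high fat minus control) for the 193 tested, with the median of -0.17 as a dashed line. Bottom, log2 fold change with its 95% confidence interval in limma for the 3 guide strands (red) and 2 other strands (grey), all of which span 0.

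For rno-miR-29b the diets differed in opposite directions on the slides. On slide 2 its scaled signal was 13666 to 15666 in the control rats and 16788 to 19789 in the high fat rats, with no overlap, a log2 difference of 0.34. On slide 1 the difference was -0.41, with the high fat rats C51 and H3 below the control rats and H1 above them. Without scaling the differences were -0.15 on slide 1 and 0.71 on slide 2, and with quantile normalization -0.18 and 0.44. On slide 2, 29 of the 193 miRNAs (15%) had all high fat rats below all control rats, and 2 (1.04%) had them above, rno-miR-29b and rno-miR-21. The second was named after its values were seen, as the count is small. On unscaled signals 20 miRNAs (10.4%) had them above. An exact permutation test of 3 rats against 3 cannot go below p = 0.1. The difference between the slides' diet effects was 0.75 for rno-miR-29b (95% confidence interval 0.04 to 1.46, limma unadjusted p = 0.0412, adjusted p = 0.422). In the same fit 21 of the 193 miRNAs (10.9%) had an unadjusted p under 0.05 and 0 an adjusted p under 0.05 (0%). Permuted within slides over 400 assignments, the exact p was 0.03, and without rat H3 the difference was 0.52 (exact permutation p = 0.07). The same difference was -0.08 for rno-miR-29a (limma adjusted p = 0.907) and -0.04 for rno-miR-29c (limma adjusted p = 0.972). These tests were chosen after the values were seen.

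A ratio of members on the same array is left as it is by any scaling that multiplies an array by 1 factor, but quantile normalization moves it. Averaged over all rats, the diets differed in each of the 3 ratios by less than the SD between rats. The log2 ratio of rno-miR-29b to rno-miR-29a was -0.05 ± 0.11 (SD, n = 6) in control and -0.06 ± 0.41 (SD, n = 6) in high fat offspring (exact two-sided permutation p = 0.972). For rno-miR-29c to rno-miR-29a it was -0.30 ± 0.08 (SD, n = 6) and -0.34 ± 0.17 (SD, n = 6) (exact permutation p = 0.63). For rno-miR-29b to rno-miR-29c it was 0.25 ± 0.18 (SD, n = 6) and 0.28 ± 0.35 (SD, n = 6) (exact permutation p = 0.835). Leaving out rat H3, the diet differences of these ratios went from -0.007 to 0.10 (exact permutation p = 0.513), from -0.04 to -0.05 (exact permutation p = 0.541) and from 0.03 to 0.16 (exact permutation p = 0.197). With quantile normalization they were -0.02, -0.11 and 0.09, with exact permutation p-values of 0.955, 0.13 and 0.6.

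Within slides the ratio of rno-miR-29b to rno-miR-29a, guides of which 1 locus each lies in the same pair, separated the diets in opposite directions. On slide 1 it was 0.10, -0.05 and 0.02 in the control rats and -0.48, -0.61 and -0.11 in the high fat rats. On slide 2 it was -0.24, -0.08 and -0.05 in the control rats and 0.20, 0.27 and 0.39 in the high fat rats. The high fat rats lay below all control rats on the first slide and above all of them on the second. The diet difference was -0.42 on slide 1 and 0.41 on slide 2, and the slides differed by 0.83 (exact two-sided permutation p = 0.005, the smallest that 400 assignments allow). Without rat H3 the slides differed by 0.73 (exact permutation p = 0.005 over 200 assignments). For rno-miR-29b to rno-miR-29c the slides differed by 0.79 (exact permutation p = 0.01), and for rno-miR-29c to rno-miR-29a by 0.04 (exact permutation p = 0.775). Among the ratios of the 192 other tested miRNAs to rno-miR-29a, 23 (12%) had an exact p under 0.05 for this difference and 5 (2.6%) the smallest p of 0.005, and 28 (14.6%) of those to rno-miR-29c had an exact p under 0.05. Of the ratios of the other miRNAs to rno-miR-29b, 78 (40.6%) had an exact p under 0.05 and 35 (18.2%) a p of 0.005, so the split was not particular to its own family. What differed between the slides besides the rats is not given in the labels, and the part of the slides in this was not tested. The tests by slide were chosen after the values were seen, here and for the other strands below.

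**Figure D3:**
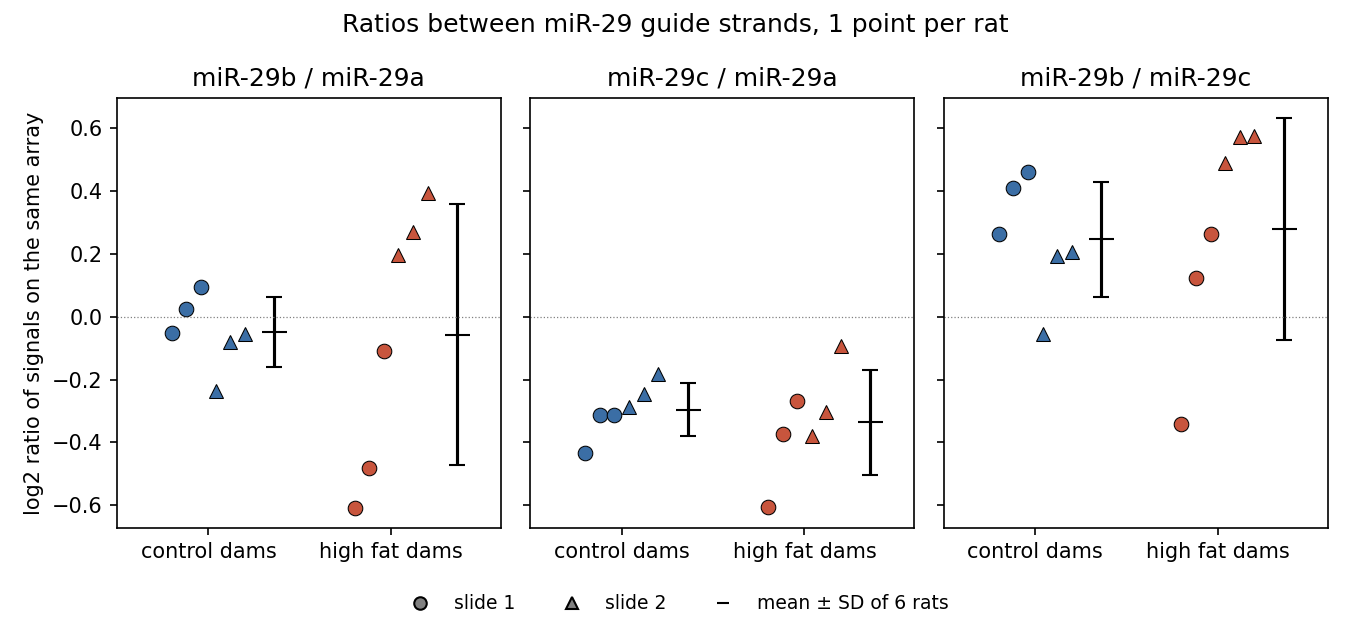
Log2 ratio of the signals of 2 members on the same array for each rat, by diet, with circles for slide 1, triangles for slide 2 and bars for the mean ± SD of 6 rats. In the ratio of rno-miR-29b to rno-miR-29a, the high fat rats of slide 1 (-0.61 to -0.11) lie below and those of slide 2 (0.20 to 0.39) above the control rats of their slide.

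With the scaling used here, rno-miR-29a and rno-miR-29c were among the steadiest miRNAs on the arrays. The SD of the log2 scaled signal between rats, pooled over the diets, was 0.14 for rno-miR-29c and 0.15 for rno-miR-29a, the lowest and second lowest of the 193 tested, whose median was 0.35. rno-miR-29b, at 0.33, was 81st from the lowest. This place depended on the scaling. With the median in place of the 75th percentile, rno-miR-29a was 4th and rno-miR-29c 16th, without scaling they were 10th and 35th, and with quantile normalization 18th and 16th. With the percentile over all miRNAs, rno-miR-29a was 56th and rno-miR-29c 72nd. Without rat H3 they were 2nd and 4th, and rno-miR-29b was 40th.

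On the scaled signal, the SD between rats was larger in the high fat than in the control group for each member. The coefficient of variation of the scaled signal was 13.8% against 5.22% for rno-miR-29a, 26.6% against 11% for rno-miR-29b and 12.4% against 6.90% for rno-miR-29c. On the unscaled signal it was 13.3% against 17.3% for rno-miR-29a, 37.4% against 15.3% for rno-miR-29b and 19.5% against 20.3% for rno-miR-29c, so that the order of the diets turned for rno-miR-29a and rno-miR-29c. Over all tested miRNAs the median SD of the log2 scaled signal was 0.30 in control and 0.42 in high fat offspring. The mean absolute deviation from the group median, in log2 units, was 0.05 against 0.15 for rno-miR-29a (exact two-sided permutation p = 0.0368). It was 0.13 against 0.30 for rno-miR-29b (exact permutation p = 0.353) and 0.09 against 0.14 for rno-miR-29c (exact permutation p = 0.165). With rat H3 left out, the difference in deviation of rno-miR-29a went from 0.10 to 0.08 and its exact permutation p to 0.162. For rno-miR-29b it went from 0.18 to 0.04 (exact permutation p = 0.844) and for rno-miR-29c from 0.056 to 0.055 (exact permutation p = 0.249). Without scaling the difference in deviation was -0.03 for rno-miR-29a (exact permutation p = 0.74), 0.33 for rno-miR-29b (exact permutation p = 0.0238) and 0.01 for rno-miR-29c (exact permutation p = 0.916). Which member passed thus changed with the scaling. The deviations were taken once from each group's own median and then permuted, so the permutation p-values of the spread are approximate. These p-values are not adjusted for the number of tests, and the tests were chosen after the values were seen.

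Across the 12 rats the members varied together only in part. rno-miR-29a and rno-miR-29c had a Pearson r of 0.59 (permutation p = 0.0439, 0.213 after Benjamini-Hochberg adjustment over 5 pairs of strands) and a Spearman rho of 0.41 (permutation p = 0.193). Without the 2 rats farthest from the median, A37 and H1, r was 0.49 (permutation p = 0.154), no longer past the threshold even unadjusted. With H1 alone left out and the arrays scaled anew it was 0.35 (permutation p = 0.28), and with A37 alone left out 0.75 (permutation p = 0.0095). Within the slides it was 0.71 and 0.65. For rno-miR-29a and rno-miR-29b r was 0.39 (permutation p = 0.218, adjusted 0.364) and rho 0.38 (permutation p = 0.218), with 0.78 on slide 1 and -0.01 on slide 2. Without A37 and H1 it was 0.57. For rno-miR-29b and rno-miR-29c r was 0.52 (permutation p = 0.0851, adjusted 0.213) and rho 0.49 (permutation p = 0.11), with 0.76 and -0.06 on the slides. Without C51 and H3 it was 0.17. After the mean of each diet on each slide was taken out, r was 0.89 for rno-miR-29a and rno-miR-29b (exact permutation p = 0.0193 over the rats within each of the 4 sets), 0.69 for rno-miR-29a and rno-miR-29c (exact permutation p = 0.146) and 0.75 for rno-miR-29b and rno-miR-29c (exact permutation p = 0.0934). Of the 161 other miRNAs detected on all arrays, 6 followed rno-miR-29a more closely than rno-miR-29b did on this measure, where the median r was 0.51. In turn 3 followed rno-miR-29b more closely than rno-miR-29a did. More closely than rno-miR-29c did, 47 followed rno-miR-29a and 33 followed rno-miR-29b. Closer to rno-miR-29c than rno-miR-29a were 11, and closer to it than rno-miR-29b were 5. The values of 1 array share 1 scaling factor. Without scaling the pairs rno-miR-29a with rno-miR-29b, rno-miR-29a with rno-miR-29c and rno-miR-29b with rno-miR-29c had an r of 0.81, 0.92 and 0.82, and with quantile normalization of -0.28, 0.75 and -0.12. Without rat H3 r was 0.13, 0.53 and 0.46 on the same scaled values, and 0.41, 0.64 and 0.65 when the other 11 arrays were scaled anew.

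**Figure D4:**
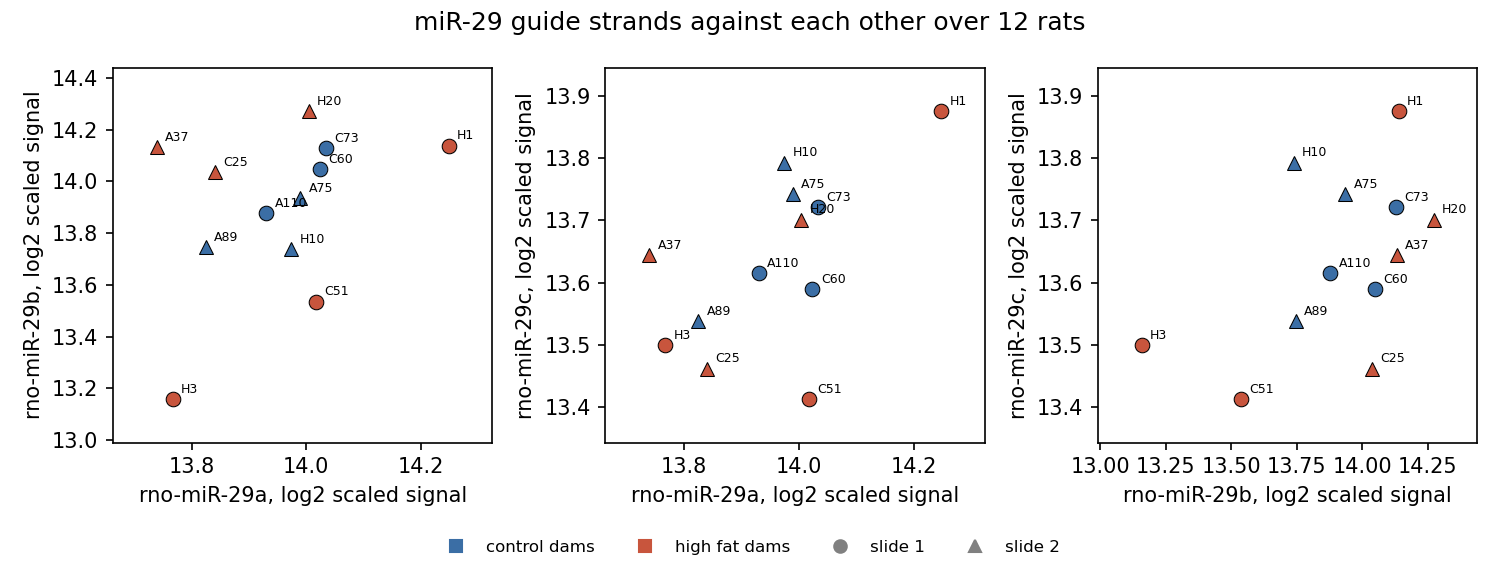
Log2 scaled signal of each pair of members over 12 rats, blue for control and red for high fat offspring, circles for slide 1 and triangles for slide 2, with the rat's label. In the first panel (r = 0.39) the high fat rats of slide 2 lie above the other rats of like rno-miR-29a signal, and H3 lies lowest.

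The miRNAs whose scaled signal was most like each member over the 12 rats were named by rule, as the 5 with the highest Pearson r among 161 others. For rno-miR-29a they were let-7d (r = 0.86), miR-22 (0.84), miR-151 (0.76), miR-1949 (0.75) and miR-185 (0.71), where the median r was 0.39. For rno-miR-29b they were miR-24-2* (0.84), miR-338* (0.83), miR-202* (0.82), miR-27a (0.82) and miR-219-5p (0.79), with a median of 0.25. Without rat H3 these 5 had an r of 0.53 to 0.60. On slide 2 alone r was -0.44 for miR-338* and -0.12 for miR-202*, against 0.97 and 0.96 on slide 1. For rno-miR-29c they were miR-345-5p (0.73), miR-30e (0.71), miR-212 (0.71), miR-30e* (0.69) and miR-133a* (0.69), with a median of 0.28. No miRNA was in more than 1 of the 3 lists.

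The other strands of the hairpins have seeds of their own, and they are shown because their signals behaved differently from the guides.
rno-miR-29a*: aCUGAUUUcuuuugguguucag
rno-miR-29b-1*: uUUCAUAUggugguuuagauuu
rno-miR-29b-2*: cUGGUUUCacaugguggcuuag
rno-miR-29c*: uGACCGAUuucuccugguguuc
rno-miR-29b-1* and rno-miR-29b-2* were detected on 0 of 12 arrays. rno-miR-29a* and rno-miR-29c* were detected on all 12.

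rno-miR-29a* differed between the slides. Its scaled signal was 16.8, 16.9 and 19.5 in the control rats and 16.7, 25.9 and 19.3 in the high fat rats of slide 1. On slide 2 it was 46.5, 35.3 and 33.0 in the control rats and 32.8, 32.4 and 36.5 in the high fat rats. No rat of slide 2 fell into the range of slide 1, and the log2 difference was 0.92 (exact two-sided permutation p = 0.0022, the smallest that 6 arrays against 6 allow). Of the 193 tested miRNAs 4 (2.07%) showed this, the others being let-7a-1*, miR-126* and miR-196c, named after their values were seen, and on unscaled signals 25 (13%) did. Its log2 fold change between the diets was 0.02 (95% confidence interval -0.62 to 0.65, limma adjusted p = 0.985). Without scaling the diet difference was 0.33, with an exact permutation p of 0.476 over all rats and of 0.04 within slides. Within an array, the log2 ratio of rno-miR-29a to rno-miR-29a* was 9.50 to 9.95 on slide 1 and 8.45 to 8.93 on slide 2, a difference of -1.03 (exact permutation p = 0.0022). The guide strand itself had no such split, with a log2 difference of -0.11 between the slides (exact permutation p = 0.21). On unscaled signals the slides differed by 0.29 in the guide (exact permutation p = 0.0519) and by 1.32 in rno-miR-29a* (exact permutation p = 0.0022). The signal of rno-miR-29a* was weak, with a listed error of 9.62% to 15.1%, against 7.66% to 7.80% for the guide.

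For rno-miR-29c* the scaled signal was 336 to 498 in control rats (median 374) and 324 to 631 in high fat rats (median 370), and the groups overlapped. The highest value was that of rat H3. On the scaled signal the diets differed in opposite directions by slide, by 0.48 on slide 1 and by -0.33 on slide 2, the reverse of rno-miR-29b. The slides differed by -0.81 (95% confidence interval -1.47 to -0.15, limma unadjusted p = 0.0214, adjusted p = 0.377, against 10.9% of all tested miRNAs with an unadjusted p under 0.05). The exact permutation p within slides was 0.025, and without rat H3 the difference was -0.65 (exact permutation p = 0.03). The log2 fold change was 0.08 (95% confidence interval -0.33 to 0.48, limma adjusted p = 0.913), and -0.04 without rat H3 (exact permutation p = 0.81). Without scaling the diet difference was 0.38, with an exact permutation p of 0.0649 over all rats and of 0.055 within slides. By slide it was then 0.73 on slide 1 and 0.04 on slide 2, both positive. The log2 ratio of guide to star differed by 0.16 between the slides (exact permutation p = 0.411).

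**Figure D5:**
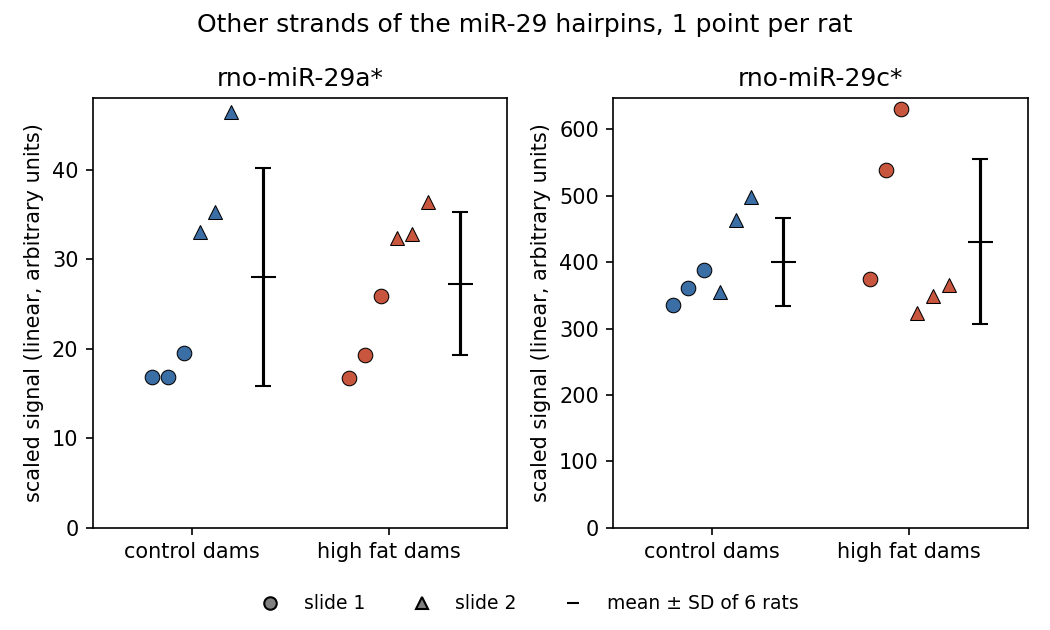
Scaled signal (linear, arbitrary units, axes from 0) of rno-miR-29a* and rno-miR-29c* by diet, with circles for slide 1, triangles for slide 2 and bars for the mean ± SD of 6 rats. For rno-miR-29a* all rats of slide 2 (32.4 to 46.5) lie above all rats of slide 1 (16.7 to 25.9).

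Other miRNAs linked to the matrix and to fibrosis, among them miR-21, the miR-30 family and the fibroblast miRNAs miR-199a and miR-214, were compared in the same fit. Of 17 listed, 16 were on the array under the name used and 13 were tested. miR-200a and miR-200b, each detected on 1 array, and miR-200c, detected on 0, were not tested. Of these limma called 0, against 0% of all tested miRNAs. With the scaling used here 3 values were positive and 10 negative (median -0.07), against 154 of all 193 tested negative (median -0.17). Without scaling 10 were positive and 3 negative (median 0.24), against a median of 0.14 over all tested. The values ran from -0.55 for miR-214 (standard error 0.38, limma adjusted p = 0.685) to 0.10 for miR-21 (standard error 0.17, limma adjusted p = 0.835). The 3 fibroblast miRNAs had negative values of -0.51 (miR-199a-5p, standard error 0.36), -0.45 (miR-199a-3p, standard error 0.31) and -0.55 (miR-214). Limma called none of them (adjusted p = 0.685 for each). The values were negative under all 5 scalings tried, but a scaling by 1 factor per array shifts all 3 by the same amount. Without scaling they were smaller, at -0.20, -0.14 and -0.24. On the scaled signal without rat H3, whose miR-199a-5p and miR-199a-3p were the lowest of the 12, they were -0.33, -0.33 and -0.48. Their summed scaled signal ran from 2755 to 7094 in control and from 2342 to 7391 in high fat offspring. In whole muscle, fewer cells of a type and less RNA per cell cannot be told apart.

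On the scaled signal, no pairing of a member with these matrix miRNAs passed the test. Over 12 pairings of the 3 members with miR-21, miR-199a-5p, miR-199a-3p and miR-214, Pearson r ran from -0.32 to 0.48, and every permutation p was 0.11 or more (adjusted 0.901). The highest, rno-miR-29b with miR-199a-5p (r = 0.48, rho = 0.29), was 0.94 on slide 1 and -0.35 on slide 2. Without C51 and H3 it was -0.19. Without scaling the 12 pairings had an r of 0.13 (rno-miR-29c with miR-214) to 0.60 (rno-miR-29b with miR-199a-5p), and these values were not tested.

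Of the 23 miRNAs linked to insulin signalling and glucose, among them the let-7 family, miR-103, miR-107, miR-126 and miR-223, all were on the array and 20 were tested. Limma called 0 of them, with 2 positive and 18 negative values (median -0.20), where 154 of all 193 tested were negative (median -0.17). Without scaling the split turned to 18 positive and 2 negative (median 0.11), where the median over all tested was 0.14. Without rat H3 the median was -0.11 in this list, -0.08 in the matrix list and -0.12 over all tested miRNAs, on the scaled values. With the other 11 arrays scaled anew, the median over all tested miRNAs was -0.03. The values ran from -1.55 for miR-96 (standard error 0.95, limma adjusted p = 0.685) to 0.39 for miR-194 (standard error 0.39, limma adjusted p = 0.717), neither of which was detected on all arrays. The paper reports the opposite direction for miR-194, reduced in the high fat offspring on the arrays and by qPCR. Here miR-194 was detected on 8 arrays. Its mean scaled signal was 9.77 in control and 12.1 in high fat offspring, near the floor of 5.17 set on the scaled signals. The let-7 members let-7a, let-7b, let-7c, let-7d, let-7e, let-7f and let-7i had values of -0.36 to -0.17. Limma called none of these 7 (adjusted p = 0.685 to 0.7), and miR-98, also in the list, was at -0.15. The miR-29 members had -0.07 to -0.03, where the median of all tested miRNAs was -0.17. Without scaling 6 of these 7 let-7 values were positive.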

How the data were processed

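Rat soleus RNA (Cy3-labelled) was hybridised by the authors to Agilent arrays. The deposited tables hold a total signal intensity, its error and a detection flag per miRNA, background-subtracted by the scanner software and not normalized between arrays; undetected miRNAs are listed at 0.1. The deposited value table held the same intensity values (0 differed). Human samples were not analysed here.

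The 22 control rows were left out. A floor of 5.17 was set on the scaled signals before log2 was taken. Diets were compared with limma 3.58.1 (R 4.3.3) on the 193 miRNAs that 6 or more arrays detected, and p-values were adjusted by Benjamini-Hochberg. Single values used exact two-sided permutation tests (924 assignments, or 400 within slides), and correlations 100000 permutations. The fit was tested on simulated data, and the outcome is not given here. The number of arrays limits the precision.

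The members and lists were chosen with earlier results of these data known. Named by rule were the members, their other strands, both lists (extremes) and the 5 nearest miRNAs of each member. The let-7 and fibroblast values, those of rat H3 and the miRNAs that share a slide pattern were named after their values were seen. All 7 strand names matched RefSeq (star strands as 5p). Alternatives covered scaling, floor, filter, slide, row, label letter, test, value table and each rat left out. miR-155 and miR-486 had no array row under those names.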

Additional observations from a re-analysis of the deposited data

How the results depend on the processing

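No setting tried gave a miRNA an adjusted limma p under 0.05 (0 in each). At an unadjusted p under 0.05 there were 2, and 6 under quantile normalization or median scaling, 1 with only miRNAs detected on all arrays, 8 with the slide as a block and 5 with the row added, 12 when arrays were weighted, 1 with trend and robust moderation, and 1 to 15 with a rat left out. The members kept no fixed sign. For rno-miR-29a, rno-miR-29b and rno-miR-29c the log2 fold changes were 0.14, 0.14 and 0.10 with the percentile over all miRNAs, 0.28, 0.28 and 0.24 without scaling, 0.15, 0.13 and 0.040 with quantile normalization, and 0.15, 0.14 and 0.11 with median scaling. With array weights rno-miR-29b was 0.11. Leaving out a rat gave -0.089 to 0.098 for rno-miR-29a, -0.086 to 0.19 for rno-miR-29b (highest without H3) and -0.12 to 0.080 for rno-miR-29c. The lowest limma adjusted p over the 27 alternatives was 0.66, 0.825 and 0.551. By slide, rno-miR-29a was 0.015 on slide 1 and rno-miR-29b 0.34 on slide 2. The ratio of rno-miR-29b to rno-miR-29a ran from -0.097 to 0.10 with a rat left out and was 0.41 on slide 2; that of rno-miR-29c to rno-miR-29a ran from -0.089 to 0.013; that of rno-miR-29b to rno-miR-29c ran from -0.0265 to 0.16 and was -0.36 on slide 1. The correlation of rno-miR-29a with rno-miR-29b was 0.81 without scaling, -0.28 with quantile normalization and 0.89 as deviations from diet and slide means. With a rat left out and the other arrays scaled anew it was 0.31 to 0.65, and without H3 on the same scaled values 0.13. For rno-miR-29a with rno-miR-29c it was 0.69 as deviations, where the unadjusted permutation p was no longer under 0.05, and 0.35 (without H1) to 0.79. Leaving out C73, A110, H1, C25, H20, A89 or A75 also put this unadjusted permutation p above 0.05. For rno-miR-29b with rno-miR-29c the correlation was 0.82 without scaling, -0.12 with quantile normalization, and 0.42 to 0.77. Without scaling the difference in spread of rno-miR-29a was -0.029. The cause of these changes was not tested.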
